A study of Mus musculus with 30 samples.

Results

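The genes described here are members of the pluripotency network of mouse embryonic stem cells, namely Pou5f1, Nanog, Sox2, Esrrb, Zfp42, Tbx3, Tfcp2l1, Prdm14, Dppa5a and Utf1. They were found by their symbol in the deposited expression table, which holds 14685 genes, and all 10 of 10 were present and exceeded 1 FPKM (fragments per kilobase of transcript, scaled to the size of the library) in at least 1 sample, the limit passed by 14525 genes. Total RNA was sequenced from E14 mouse embryonic stem cells (ESC) and from 4 populations on their way to blood, in WT cells and in 2 mutant lines made in the same E14 background. The line labelled Sp1_deltaDBD carries Sp1 without its DNA-binding domain, and the line labelled Sp3KO has no functional Sp3. The populations were ESC, Flk1+ cells taken from embryoid bodies with magnetic beads, and the sorted blast-culture populations HE1 (Tie2+ and KIT+ without CD41), HE2 (Tie2+ and KIT+ with CD41) and progenitors (CD41+ and KIT+ without Tie2), each with 2 replicates per genotype, 30 samples in all.

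Several features limit what these groups can model. Each genotype is 1 ES line in this series, the embryoid bodies were grown for a time that depended on the line, and ESC were kept on feeder fibroblasts and then passaged without them, so genotype, line and culture time cannot be told apart. The 2 replicates are called biological by the study, and p-values measure the spread between these samples only. The files hold no read counts, so the depth of each sample is unknown. In bulk RNA, fewer cells of a type and less RNA per cell cannot be told apart either.

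Pou5f1 (Oct4) and Sox2 bind DNA together at composite sites and, with Nanog, sit at the centre of a network in which the factors activate one another and hold back differentiation. Esrrb, Tfcp2l1, Tbx3, Prdm14 and Zfp42 (Rex1) mark the naive state of mouse ESC, which is sustained by LIF and Stat3 signalling, while Utf1 is a chromatin-associated protein and Dppa5a an RNA-binding KH-domain protein of the same cells. When LIF is withdrawn the naive genes are lost early, Pou5f1 and Nanog persist through the primed epiblast and the primitive streak, and Tbx3 is used again in mesoderm and extraembryonic tissues.

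Sp1 and Sp3 bind GC boxes, and the promoters of these genes differed in how many they held. RefSeq sequence (GRCm38.p6, the 250 bases before the annotated start) was at hand for 7 of the 10 genes, all but Tbx3, Prdm14 and Dppa5a. The stretches below are shown 5′ to 3′ on the strand of the gene. Utf1, Sox2 and Zfp42 are shown because each was called in a comparison of genotypes, and Pou5f1 because it is at the centre of the network. Nanog is shown because, like Esrrb, it holds no exact match to the letters searched. Capitals mark the GC box (GGGCGG or CCGCCC) and the octamer of Pou5f1 (ATTTGCAT, either strand).
Utf1, chr7:139943606-139943788: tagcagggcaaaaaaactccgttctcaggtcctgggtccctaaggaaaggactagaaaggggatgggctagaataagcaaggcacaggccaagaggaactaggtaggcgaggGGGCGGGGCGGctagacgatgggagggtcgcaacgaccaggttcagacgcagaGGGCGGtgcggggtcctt
Sox2, chr3:34649745-34649994: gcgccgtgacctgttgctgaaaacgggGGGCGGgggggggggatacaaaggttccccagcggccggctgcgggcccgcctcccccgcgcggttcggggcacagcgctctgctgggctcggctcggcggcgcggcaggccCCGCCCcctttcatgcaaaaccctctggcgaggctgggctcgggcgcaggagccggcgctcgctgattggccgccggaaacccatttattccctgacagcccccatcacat
Zfp42, chr8:43307010-43307259: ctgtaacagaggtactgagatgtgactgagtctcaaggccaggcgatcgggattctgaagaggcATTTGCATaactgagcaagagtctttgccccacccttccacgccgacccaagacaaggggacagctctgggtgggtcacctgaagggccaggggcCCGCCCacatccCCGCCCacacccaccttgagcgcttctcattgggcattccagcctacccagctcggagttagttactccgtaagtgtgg
Pou5f1, chr17:35505782-35506017: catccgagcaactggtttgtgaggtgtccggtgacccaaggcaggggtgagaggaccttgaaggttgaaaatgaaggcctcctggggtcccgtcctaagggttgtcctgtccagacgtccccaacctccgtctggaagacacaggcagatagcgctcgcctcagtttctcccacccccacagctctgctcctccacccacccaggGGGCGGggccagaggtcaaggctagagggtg
Nanog, chr6:122707239-122707488: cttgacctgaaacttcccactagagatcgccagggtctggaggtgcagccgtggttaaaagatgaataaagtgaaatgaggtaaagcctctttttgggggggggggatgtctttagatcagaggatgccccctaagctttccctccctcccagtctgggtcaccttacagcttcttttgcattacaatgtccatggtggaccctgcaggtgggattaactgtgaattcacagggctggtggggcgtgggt
The Utf1 window held 4 GC boxes, of which 1 pair overlaps and 3 lie in the 183 bases shown. Sox2 and Zfp42 held 2 each, Pou5f1 held 1, and Nanog, Esrrb and Tfcp2l1 held 0. Of 14096 promoters of the same length, 55.9% held a GC box and 31.1% held 2 or more, so these letters are common. The octamer was found in Zfp42 alone among the 7 genes, against 1.33% of all promoters. A Sox site (ACAAAG, either strand) was found in Sox2 (12.7% of all promoters) and a TATA box (TATAAA, either strand) in Tfcp2l1 (6.7%). Only exact matches were counted. A stretch that differs from the octamer in its first letter, such as ttttgcat in the Nanog window, was left out. The absence of a match therefore does not show the absence of a site. These matches are letters in a window and were not tested for binding.

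The labels were checked against the genes of the sorted proteins and against Sp3. Kdr, which encodes Flk1, was at most 0.322 FPKM in ESC and between 165 and 257 FPKM in Flk1+ cells. Sp3 lay between 3.38 and 7.79 FPKM in the 10 Sp3KO samples and between 25.9 and 58.1 FPKM in WT. Itga2b, which encodes CD41, was not absent from HE1, the population sorted without CD41. It was between 34.8 and 55.7 FPKM in the WT and Sp1_deltaDBD HE1 samples, 83.3 and 81.8 in Sp3KO HE1, between 84.6 and 147 in HE2, and between 59.1 and 136 in progenitors, so that Sp3KO HE1 lay within the range of the CD41+ progenitors. Sp1 is measured over the whole gene, so its level in Sp1_deltaDBD does not check the deleted domain. In the Sp1_deltaDBD Flk1+ pair, replicate 1 was higher than replicate 2 for 8 of the 10 network genes, with a median ratio of 1.85. The endothelial cadherin Cdh5 was 5.84 in replicate 1 and 14.8 FPKM in replicate 2 of this pair. Replicate 1 was also higher for 8 of the 10 genes in WT Flk1+ cells (median ratio 1.32) and WT HE1 (1.48). In Sp1_deltaDBD HE2 replicate 2 was higher for 9 of the 10 (0.442). Calls against WT that rest on the Sp1_deltaDBD Flk1+ pair are given with each of its samples left out.

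In WT ESC the network genes spanned a wide range of levels per length. Dppa5a, Zfp42 and Pou5f1 were the most abundant, at 1150 ± 71.5, 538 ± 35.8 and 495 ± 8.52 FPKM (SD, n = 2). Pou5f1 ranked 117 of 14685 genes there. Nanog (125 ± 5.99 FPKM), Sox2 (82.6 ± 15.4), Esrrb (78.9 ± 1.55) and Tfcp2l1 (40.9 ± 0.738) followed, and Utf1 (26.0 ± 1.73), Prdm14 (7.75 ± 0.828) and Tbx3 (6.32 ± 0.791) were the least abundant. Neighbours in this order that did not differ beyond their 2 samples were Sox2 and Esrrb, and Prdm14 and Tbx3 were separated only by 7.17 against 6.88 FPKM.

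**Figure D1:**
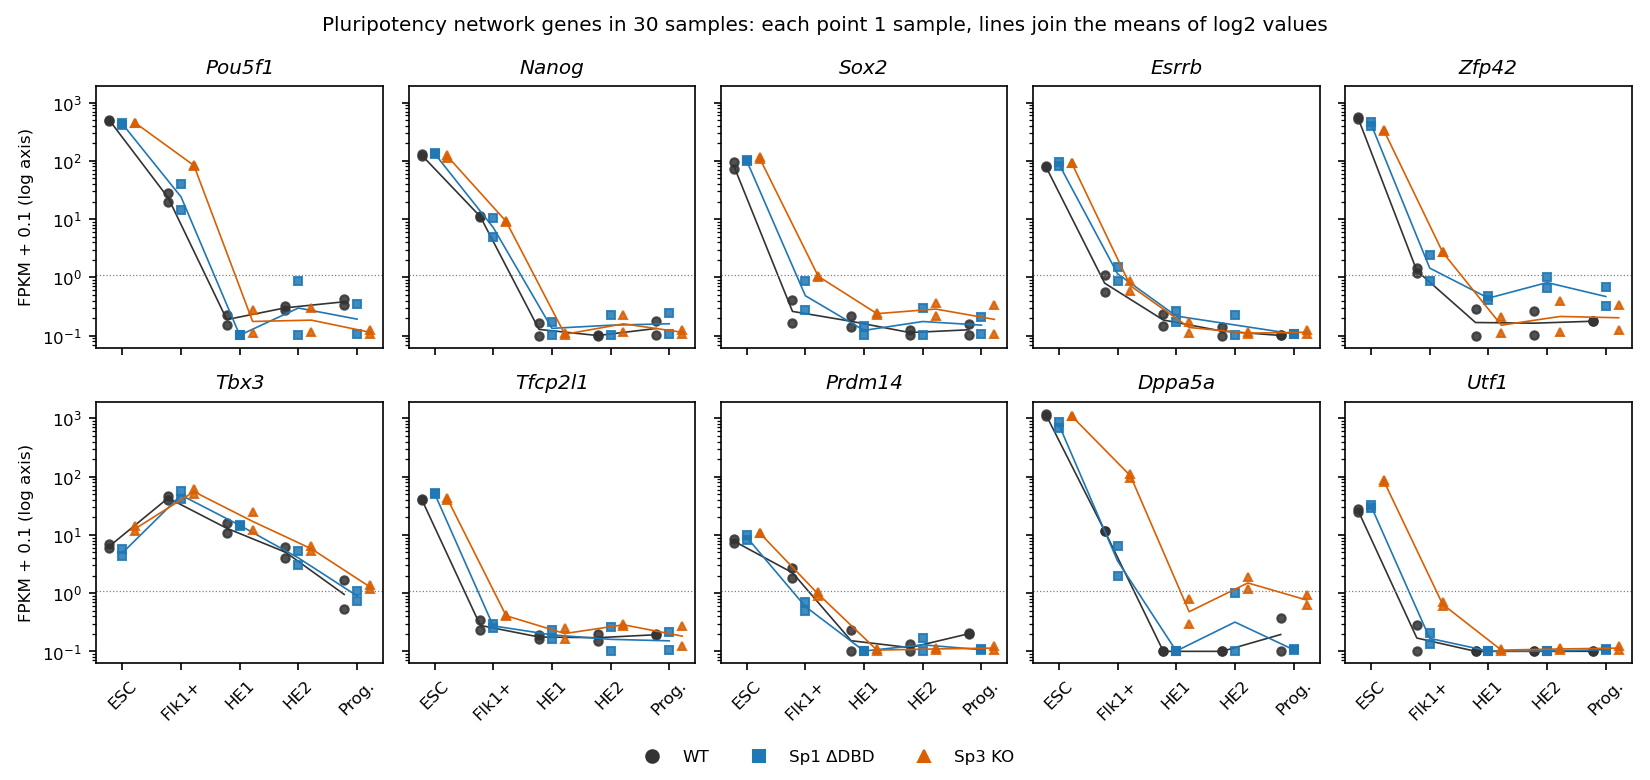
Level of each of the 10 pluripotency network genes (FPKM + 0.1, log axis) in the 5 populations, with a point for each of the 2 samples of a genotype, lines through the means of the log2 values and a dotted line at 1 FPKM. All genes but Tbx3 drop from ESC to Flk1+ cells and again to HE1, where nearly all samples lie under 1 FPKM, and Tbx3 peaks in Flk1+ cells in all 3 genotypes.

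Loss of the Sp1 DNA-binding domain left the network of undifferentiated ESC without a change that passed the test. The threshold throughout is an adjusted p of 0.05 from limma on log2(FPKM + 0.1), fitted to all 14525 genes, and 6.06% of these were called in Sp1_deltaDBD ESC against WT. Of the 10 network genes 0 were called, and 0 had an unadjusted p under 0.05 or passed the fold change rule (2.87% of all genes), which is described with Sp3KO. Their log2 differences from WT lay between -0.56 and 0.33, with a median of 0.12 against 0.00 over all genes. The samples of the 2 genotypes did not overlap for 9 of the 10 genes, beside 45.2% of all genes.

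The genes lowest relative to WT in Sp1_deltaDBD ESC were Dppa5a, Tbx3 and Zfp42. Dppa5a stood at 879 and 692 FPKM in Sp1_deltaDBD and at 1201 and 1099.7 in WT. Zfp42 was at 398 and 455 FPKM in the mutant and at 512 and 563 in WT. Pou5f1 was also below WT, at 450.5 and 410.1 FPKM against 501 and 489, whereas Tfcp2l1 (52.6 and 50.5 against 41.4 and 40.4), Sox2 (101 and 99.5 against 93.6 and 71.7) and Nanog (132 and 135 against 121 and 129.7) were above it. With 2 samples a group an exact permutation test of any one of these pairs cannot go below p = 0.333.

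Sp3KO ESC differed from WT at Utf1 (chr7:139943789-139945112, + strand, GRCm38). Utf1 was at 86.1 and 79.9 FPKM in Sp3KO, 24.8 and 27.2 in WT, and 33.1 and 29.3 in Sp1_deltaDBD. Both Sp3KO samples stood far above all 4 others, and the log2 difference from WT was 1.67 (SE 0.35, limma adjusted p = 0.00441). This was the 1 call among the 10 genes, where 11.3% of all genes were called, and Utf1 was also the 1 network gene past the fold change rule of the study (more than 2-fold with a pseudocount of 0.1, here also with the higher mean above 3 FPKM), beside 3.7% of all genes. The limma call was lost when log2 differences were adjusted for GC content and length, where Utf1 (63.5% GC) was higher by 0.70 on the log2 scale (limma adjusted p = 0.258), and in these ESC the differences of all genes rose with GC content (Spearman rho 0.463 across genes, which are not independent replicates).

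Tbx3 and Zfp42 moved in opposite directions in Sp3KO ESC without passing the test. Tbx3, a T-box factor, was at 13.9 and 11.5 FPKM in Sp3KO against 5.76 and 6.88 in WT, a log2 difference of 1.0 (SE 0.42, limma adjusted p = 0.141) that passed when replicates were blocked by number (0.0495) and with ESC and Flk1+ samples fitted alone (0.0175). Zfp42 was at 327 and 334 FPKM, below every WT and Sp1_deltaDBD sample, with a log2 difference from WT of -0.70 (adjusted p = 0.564, and 0.0390 with a pseudocount of 1). The remaining genes showed smaller differences, with Pou5f1 at 450.5 and 443, Nanog at 127 and 112, Sox2 at 116 and 107, Esrrb at 91.1 and 90.8, and Dppa5a at 1099.7 and 1080.0 FPKM. The 10 genes had a median log2 difference of 0.11 against -0.02 over all genes, and their Sp3KO and WT samples did not overlap for 7 of 10 genes, beside 61.0% of all genes.

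From ESC to Flk1+ cells 9 of the 10 genes fell in each genotype and Tbx3 rose. The share of all genes called lower at this step was 24.7% in WT, 22.3% in Sp1_deltaDBD and 22.8% in Sp3KO. With a block for replicates the fall of Pou5f1 in Sp3KO did not pass (limma adjusted p = 0.0600). ESC and Flk1+ samples did not overlap in any of the 30 gene and genotype pairs. The median log2 difference of the 10 genes was -6.62 in WT, -6.90 in Sp1_deltaDBD and -5.19 in Sp3KO, against 0.03, 0.05 and 0.03 over all genes.

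The extent of the fall varied widely among the 9 genes. In WT Flk1+ cells Zfp42 kept 0.225% of its ESC mean, Sox2 0.228%, Utf1 0.364%, Tfcp2l1 0.453%, Esrrb 0.939% and Dppa5a 1.01%, while Pou5f1 kept 4.75%, Nanog 8.72% and Prdm14 28.2%. On the log2 scale the largest WT fall was that of Zfp42 (-8.69, SE 0.64) and the smallest that of Prdm14 (-1.80, SE 0.35, limma adjusted p = 0.000247). WT Flk1+ cells still held Pou5f1 at 27.4 and 19.6 FPKM, Nanog at 11.2 and 10.7 and Dppa5a at 11.8 and 11.5, which are the genes of the network, apart from Tbx3, that stayed above 3 FPKM.

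**Figure D2:**
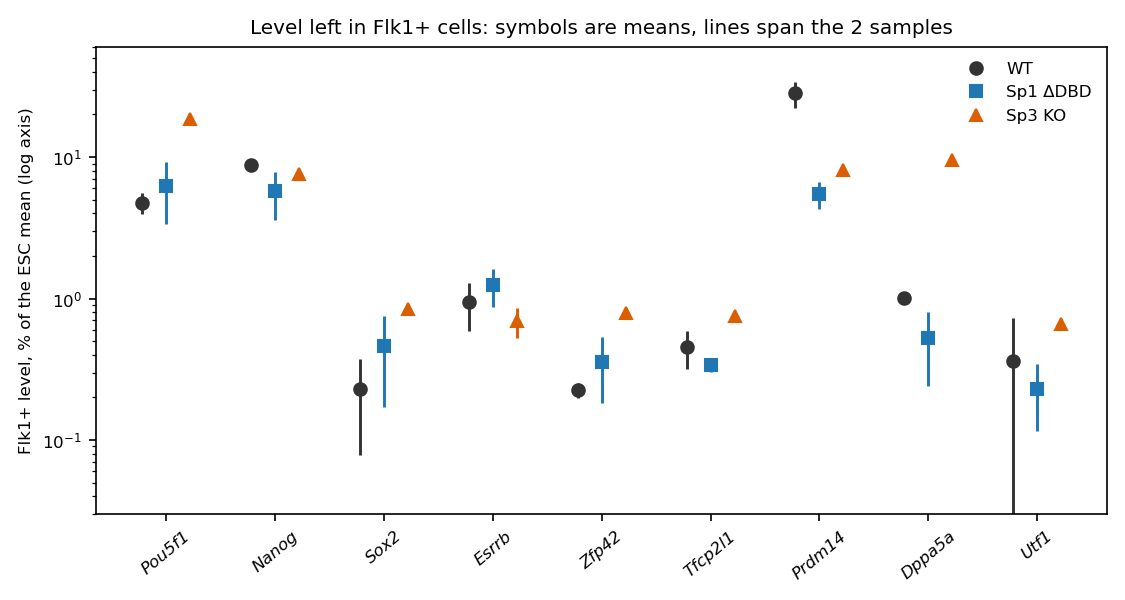
Level left in Flk1+ cells as a percent of the ESC mean of the same genotype (log axis) for the 9 genes that fell, with symbols at the means and lines spanning the 2 samples. Pou5f1 (18.6%) and Dppa5a (9.48%) lie higher in Sp3KO than in WT (4.75% and 1.01%) and Prdm14 lies lower in both mutants (5.50% and 8.10%) than in WT (28.2%); the WT line of Utf1 reaches the lower edge because 1 sample is listed at 0.

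In Flk1+ cells of the Sp3KO line several network genes stood above WT. Of the 10 genes 3 were called higher (Sox2, Dppa5a and Utf1) and 1 lower (Prdm14), where 12.6% of all genes were called, 6.69% higher and 5.94% lower. The median log2 difference of the 10 genes was 0.80, against 0.00 over all genes, and 7 of 10 were above 0. Sp3KO and WT samples did not overlap for 9 of the 10 genes, beside 68.0% of all genes.

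Dppa5a (chr9:78367052-78368177, - strand, GRCm38) showed the largest of these differences. It was at 110 and 96.4 FPKM in Sp3KO Flk1+ cells, 11.8 and 11.5 in WT, and 6.36 and 1.88 in Sp1_deltaDBD. Both Sp3KO samples stood above all 4 others, at a log2 difference from WT of 3.14 (SE 0.75, limma adjusted p = 0.0101). The call was lost without WT replicate 1 (adjusted p = 0.0540), WT replicate 2 (0.0850) or Sp3KO replicate 1 (0.0883) of the Flk1+ samples. Dppa5a has near-identical pseudogene copies, as have Pou5f1 and Nanog, and how reads shared among them were assigned is not given in the sources used here.

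Pou5f1 (chr17:35506018-35510772, + strand, GRCm38), whose product is at the centre of the network, was at 82.1 and 83.9 FPKM in Sp3KO Flk1+ cells. WT samples held 27.4 and 19.6 FPKM and Sp1_deltaDBD samples 39.7 and 14.4, so that both Sp3KO samples were above every other Flk1+ sample. The log2 difference of 1.84 (SE 0.73) did not pass the test (limma adjusted p = 0.106). It passed without either Sp1_deltaDBD HE2 sample (0.0297 and 0.0298), which enter this comparison only through the shared estimate of the spread. By rank the gene was 3279 of 14685 in WT Flk1+ cells and 742 in Sp3KO. Under the fold change rule of the study, Pou5f1 and Dppa5a were the 2 network genes that changed in Sp3KO Flk1+ cells, where 4.43% of all genes did.

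Sox2 and Utf1 were called higher in Sp3KO Flk1+ cells at levels under 1 FPKM. Sox2 was at 0.949 and 0.931 FPKM in Sp3KO, against 0.311 and 0.0650 in WT and 0.761 and 0.171 in Sp1_deltaDBD (log2 difference from WT 2.0, SE 0.61, limma adjusted p = 0.0383). Utf1 was at 0.494 and 0.600 FPKM in Sp3KO, against 0.189 and 0 in WT and 0.107 and 0.0362 in Sp1_deltaDBD (difference on the log2(FPKM + 0.1) scale 1.92, SE 0.35, adjusted p = 0.00169). Because 1 WT sample is listed at 0, the Utf1 difference depends on the 0.1 added and is not a fold. The Sox2 call was lost without WT replicate 2 (log2 difference 1.34, adjusted p = 0.368), Sp3KO replicate 1 (0.181) or Sp3KO replicate 2 (0.133) of the Flk1+ samples.

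Prdm14 (chr1:13113457-13127163, - strand, GRCm38), a PR-domain factor of naive ESC and primordial germ cells, was the member called lower in Flk1+ cells of both mutants. WT Flk1+ samples were at 1.73 and 2.64 FPKM, Sp1_deltaDBD at 0.607 and 0.390, and Sp3KO at 0.941 and 0.793. All 4 mutant samples lay below both WT samples, and the comparisons of the mutants share these WT samples. The log2 difference was -1.93 (SE 0.35, limma adjusted p = 0.00212) in Sp1_deltaDBD and -1.22 (SE 0.35, adjusted p = 0.0279) in Sp3KO. Without WT replicate 2 of the Flk1+ samples both calls were lost (adjusted p = 0.0609 and 0.281), and the Sp3KO call was also lost without Sp3KO replicate 1 (0.108) or 2 (0.146).

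In Sp1_deltaDBD Flk1+ cells Prdm14 was the 1 call among the 10 genes, where 5.54% of all genes were called. The median log2 difference of the 10 genes was 0.01, against 0.02 over all genes, and was -0.45 without replicate 1 of the mutant and 0.21 without replicate 2. The samples of the 2 genotypes did not overlap for 3 genes, beside 55.2% of all genes. Dppa5a (6.36 and 1.88 against 11.8 and 11.5 FPKM in WT) was below WT in both samples, at a log2 difference of -1.71 (limma adjusted p = 0.218). It was called with a pseudocount of 1 (-1.46, adjusted p = 0.00665) and was the 1 network gene that passed the fold change rule of the study there, beside 3.08% of all genes. Nanog was at 10.5 and 4.77 FPKM against 11.2 and 10.7 (log2 difference -0.62, adjusted p = 0.537). The spread within the mutant pair was as large as these differences: Pou5f1, Nanog, Sox2, Zfp42 and Dppa5a were all more than 2-fold higher in replicate 1. Prdm14 kept its call without replicate 1 of the mutant (-2.19, adjusted p = 0.00726) and without replicate 2 (-1.67, 0.0383).

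**Figure D3:**
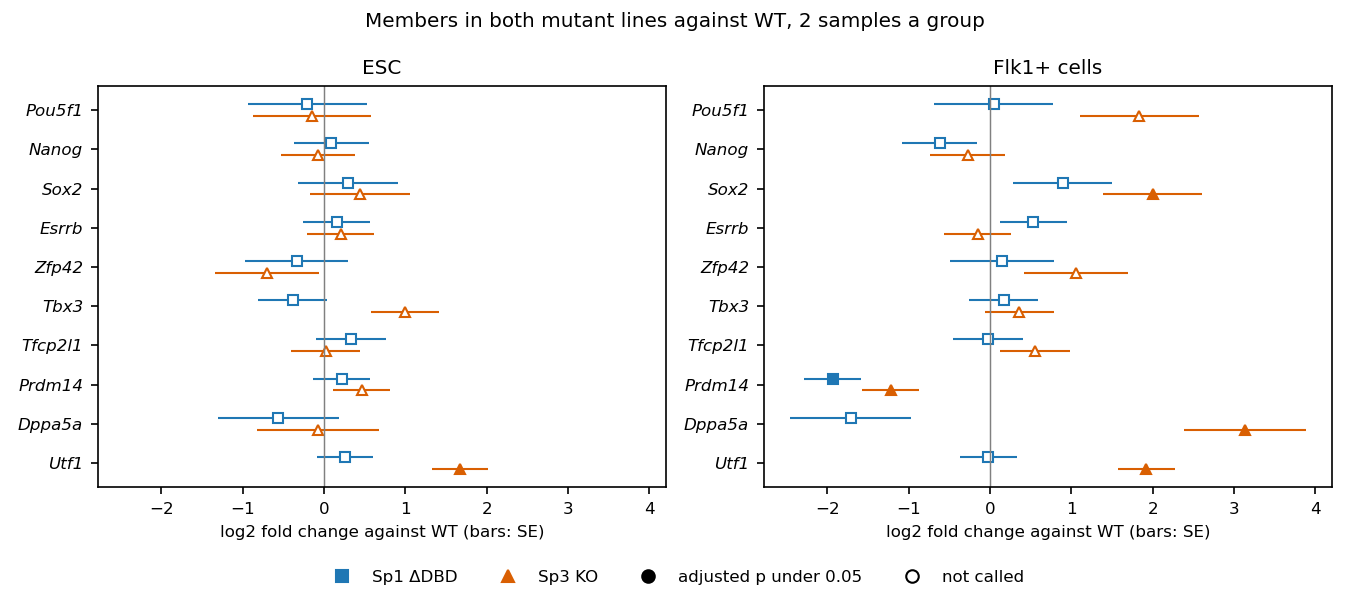
Log2 difference from WT (± SE, limma on log2(FPKM + 0.1)) of the 10 genes in ESC and in Flk1+ cells for Sp1_deltaDBD and Sp3KO, with filled symbols where the adjusted p is under 0.05. In ESC only Utf1 in Sp3KO (1.67) is filled, and in Flk1+ cells Dppa5a (3.14), Sox2 (2.0), Utf1 (1.92) and Prdm14 (-1.22) in Sp3KO and Prdm14 (-1.93) in Sp1_deltaDBD.

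Whether a mutant's difference from WT changed between ESC and Flk1+ cells was tested as an interaction. Of the 10 genes only Prdm14 in Sp1_deltaDBD passed: the log2 difference from WT was 0.22 in ESC and -1.93 in Flk1+ cells, an interaction of -2.15 (SE 0.49, limma adjusted p = 0.0310) where 1.74% of all genes were called. The call was lost without any 1 of 6 of the ESC and Flk1+ samples, at the highest without WT Flk1+ replicate 2 (adjusted p = 0.179). In Sp3KO 0 of 10 genes were called, beside 1.48% of all genes, and 2 had an unadjusted p under 0.05. The Sp3KO interaction was 3.21 for Dppa5a (adjusted p = 0.143), -1.68 for Prdm14 (0.102), 1.98 for Pou5f1 (0.432) and 1.75 for Zfp42 (0.427). The Dppa5a interaction passed without either Sp1_deltaDBD HE2 sample (0.0372 and 0.0373), which enter it only through the shared spread.

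The mutants were also compared with each other, since a call in 1 line and not in the other does not show a difference. In Flk1+ cells Dppa5a was higher in Sp3KO than in Sp1_deltaDBD by 4.85 on the log2 scale (SE 0.75, limma adjusted p = 0.000552) and Utf1 by 1.94 (SE 0.35, adjusted p = 0.00212), where 7.39% of all genes were called. The Utf1 call was lost without Sp1_deltaDBD Flk1+ replicate 2 (1.64, adjusted p = 0.053). The Dppa5a difference kept its call under all alternatives and with each sample left out. Pou5f1 was higher by 1.79 (SE 0.73) and did not pass (adjusted p = 0.153). In ESC Utf1 was higher by 1.41 (SE 0.35, adjusted p = 0.0143) and Tbx3 by 1.38 (SE 0.42, adjusted p = 0.0431), where 9.67% of all genes were called. The Tbx3 call was lost without any 1 of 12 of the 30 samples. It was also lost without the intensity trend (limma adjusted p = 0.0551), with GC content and length adjustment (0.0549) and with ESC fitted alone (0.0503). With ESC and Flk1+ samples fitted alone, the Utf1 call was lost (0.0701). The Utf1 call was lost with the GC and length adjustment (0.192) and without Sp1_deltaDBD ESC replicate 2 (0.0789), Sp3KO ESC replicate 1 (0.113) or Sp3KO ESC replicate 2 (0.0740).

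After the Flk1+ stage the network was close to the floor of the table. Of 162 values of the 9 genes other than Tbx3 in the 18 HE1, HE2 and progenitor samples, 160 were under 1 FPKM and 86 were at the lowest value of their sample, which 784 to 1660 genes shared in these samples. From Flk1+ to HE1 7 of the 10 genes were called lower in WT, 8 in Sp1_deltaDBD and 9 in Sp3KO, where 29.5%, 25.1% and 23.3% of all genes were. In Sp1_deltaDBD the calls of Sox2 and Zfp42 at this step were lost without Flk1+ replicate 1 (limma adjusted p = 0.216 and 0.330), Sox2 also without HE1 replicate 2 (0.0835), and Zfp42 without either HE1 replicate (0.0817 and 0.120) or with a block for replicates (0.0770). The log2 difference of Pou5f1 at this step was -6.95 in WT, -7.88 in Sp1_deltaDBD and -8.89 in Sp3KO (SE 0.73 each). In HE1 it was at 0.130 and 0.0549 FPKM in WT, 0.000941 and 0.00251 in Sp1_deltaDBD, and 0.179 and 0.00960 in Sp3KO. Sp3KO cells thus held Pou5f1 near the floor in HE1, as WT did.

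Dppa5a was the one gene apart from Tbx3 with values above 1 FPKM after the Flk1+ stage, in both Sp3KO HE2 samples (1.08 and 1.80). In WT HE2 it was at 0 and 0.000732 FPKM, both the lowest value of their sample, and in Sp1_deltaDBD HE2 at 0.000930 and 0.907. Limma called it higher in Sp3KO HE2 than in WT (adjusted p = 0.00263), where 13.8% of all genes were called, and the size of the difference depends on the 0.1 added and is not given as a fold. Dppa5a was also listed above WT in Sp3KO HE1 (0.196 and 0.680 against 0.000890 and 0 FPKM) and in Sp3KO progenitors (0.535 and 0.820 against 0.278 and 0.000832), neither of them called. Of the 10 genes 0 were called between Sp3KO and WT in HE1 and in progenitors (10.9% and 8.65% of all genes), with 1 and 3 at an unadjusted p under 0.05 by limma. The direct comparison with Sp1_deltaDBD called Dppa5a higher in Sp3KO in HE2 (adjusted p = 0.0486, with 15.9% of all genes called) and in progenitors (adjusted p = 0.0189, with 11.6%), and 0 of 10 genes in HE1 (13.6%), with 2 at an unadjusted p under 0.05. Of 30 fits that each left out 1 sample, 7 kept the HE2 call of this direct comparison and 26 kept the progenitor call, and of 9 other settings 3 and 7 did.

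Zfp42 was higher in HE2 of Sp1_deltaDBD than in WT. It was at 0.549 and 0.921 FPKM in the mutant and at 0.166 and 0.000732 in WT, and in Sp3KO at 0.298 and 0.0143. The difference on the log2(FPKM + 0.1) scale was 2.32 (SE 0.64, limma adjusted p = 0.0259), the 1 call among the 10 genes where 9.67% of all genes were called. It was lost without WT HE2 replicate 2 (0.209) or Sp1_deltaDBD HE2 replicate 2 (0.197), the sample in which 9 of the 10 genes were above its partner, and also with a pseudocount of 1 (0.0521) and with HE2 fitted alone (0.22). In the direct comparison Zfp42 was lower in Sp3KO than in Sp1_deltaDBD in HE2 (-1.93, adjusted p = 0.0451), a call kept in 15 of the 30 fits with 1 sample left out and in 3 of 9 other settings. Sp1_deltaDBD HE1 and progenitors held 0 calls against WT (10% and 8.78% of all genes), with 1 and 2 genes at an unadjusted p under 0.05.

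Tbx3 (chr5:119670669-119684724, + strand, GRCm38) ran a different course from the other 9 genes. In WT it was at 5.76 and 6.88 FPKM in ESC, 38.9 and 47.1 in Flk1+ cells and 15.6 and 10.6 in HE1. HE2 cells held 6.17 and 3.97 FPKM, and progenitors 1.60 and 0.432. The order of the WT groups was therefore Flk1+, HE1, ESC, HE2 and progenitors, and ESC and HE2 were the neighbours whose samples overlapped. The rise from ESC to Flk1+ cells was 2.74 on the log2 scale in WT (SE 0.42, limma adjusted p = 1.95e-05), 3.30 in Sp1_deltaDBD (adjusted p = 2.25e-06) and 2.11 in Sp3KO (0.000329), where 27.4%, 26.3% and 26.0% of all genes were called higher.

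Past the Flk1+ stage Tbx3 fell at every step in every genotype. From Flk1+ to HE1 its log2 difference was -1.72 in WT, -1.72 in Sp1_deltaDBD and -1.69 in Sp3KO (SE 0.42 each). It was the only one of the 10 genes called at the 2 later steps. From HE1 to HE2 the difference was -1.36 in WT (limma adjusted p = 0.0257), -1.86 in Sp1_deltaDBD (0.00427) and -1.56 in Sp3KO (0.0171), where 10.2%, 10.3% and 7.61% of all genes were called lower. From HE2 to progenitors it was -2.41, -2.16 and -2.18, where 7.78%, 9.1% and 5.81% were. The HE1 to HE2 call was lost in WT with GC content and length adjustment (adjusted p = 0.0717) and without HE1 replicate 1 (0.190) or HE2 replicate 2 (0.180), in Sp1_deltaDBD without HE2 replicate 2 (0.0794), and in Sp3KO without HE1 replicate 1 (0.227) or either HE2 replicate (0.0561 and 0.117), and the Flk1+ to HE1 call in Sp3KO without HE1 replicate 2 (0.0696). Between either mutant and WT Tbx3 was not called in any population, apart from the Sp3KO ESC calls of other settings given above.

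Other genes of the pluripotent state were set beside the network. A list of 30 further genes of naive ESC, such as Klf2, Klf4, Dppa2 and Fgf4, had 29 members in the table. None of them was called in ESC of either mutant (6.06% of all genes in Sp1_deltaDBD and 11.3% in Sp3KO), with 1 in Sp1_deltaDBD and 2 in Sp3KO at an unadjusted p under 0.05 by limma. Between ESC and Flk1+ cells 27 of 29 were called lower in WT, 26 in Sp1_deltaDBD and 26 in Sp3KO. The shares of all genes called lower there were 24.7%, 22.3% and 22.8%. In Sp3KO Flk1+ cells 3 were called higher and 1 lower than WT (6.69% and 5.94% of all genes), with a median log2 difference of 0.32. In Sp1_deltaDBD Flk1+ cells 2 were called higher and 2 lower (2.92% and 2.62% of all genes), with a median of 0.21, and 0 and 1 without replicate 1 of the mutant and 2 and 0 without replicate 2.

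A list of genes of the formative and primed epiblast, the state that follows naive pluripotency, had its calls in Flk1+ cells of both mutants in 1 direction. Of 13 genes measured, 6 were called higher and 0 lower in Sp3KO Flk1+ cells (median log2 difference 1.22, against 0.00 over all genes), where 6.69% and 5.94% of all genes were called. In Sp3KO Flk1+ cells, too, the differences of all genes rose with GC content (Spearman rho 0.338 across genes). The counts and medians of the gene lists are from the fit without GC adjustment. In Sp1_deltaDBD 3 were called higher and 0 lower (median 0.40), where 2.92% and 2.62% of all genes were, and 2 higher without replicate 1 (median 0.04) and 4 without replicate 2 (median 0.63). Otx2, a homeobox factor of the primed epiblast, was at 20.9 and 23.1 FPKM in Sp3KO, 26.2 and 9.82 in Sp1_deltaDBD and 3.53 and 1.92 in WT. All 4 mutant samples lay above both WT samples, at log2 differences from WT of 3.03 (SE 0.41, limma adjusted p = 0.00021) and 2.57 (SE 0.41, adjusted p = 0.000635), and the Sp1_deltaDBD call was kept without replicate 1 (1.87, adjusted p = 0.0224) and without replicate 2 (3.28, 0.000241). Fgf5, a signal of the same state, was at 3.10 FPKM in Sp3KO against 0.297 in WT (log2 difference 3.11, SE 0.53, adjusted p = 0.00119). In ESC 2 of the 13 genes were called higher and 1 lower in Sp3KO (11.3% of all genes in either direction), and 0 in Sp1_deltaDBD (6.06%), where 3 had an unadjusted p under 0.05.

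**Figure D4:**
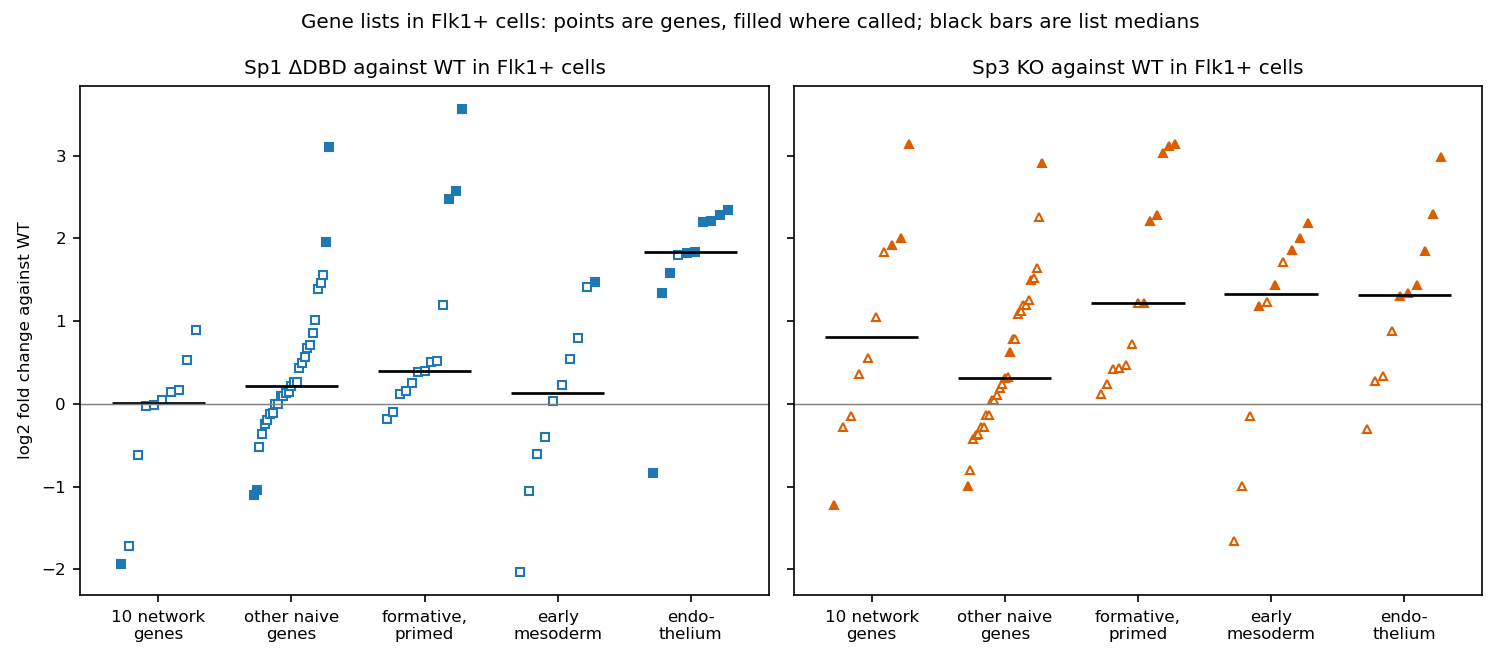
Log2 difference from WT in Flk1+ cells for each gene of 5 lists (the 10 network genes, other naive pluripotency genes, formative and primed epiblast genes, early mesoderm and endothelium), with bars at the medians. In Sp3KO the medians are 0.80, 0.32, 1.22, 1.33 and 1.32, and in Sp1_deltaDBD they are 0.01, 0.21, 0.40, 0.14 and 1.83.

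Genes of early mesoderm and of endothelium moved in the same Flk1+ samples. The early mesoderm list holds markers of the Flk1+ population itself, such as Etv2, and so does not mark other cells. Of 10 early mesoderm genes, 5 were called higher in Sp3KO than in WT (median log2 difference 1.33, where 6.69% of all genes were called higher) and 1 in Sp1_deltaDBD (median 0.14, where 2.92% were), or 0 without replicate 1 of the mutant. Their summed level was 577 to 592 FPKM in WT, 556 to 591 in Sp1_deltaDBD and 825 to 889 in Sp3KO. Etv2, a factor of blood and vessel precursors, was at a mean of 93.2 FPKM in Sp3KO Flk1+ cells against 24.2 in WT (log2 difference 2.01, SE 0.46, limma adjusted p = 0.00754). Of 10 endothelial genes, 6 were called higher in Sp3KO (6.69% of all genes) and 8 in Sp1_deltaDBD (2.92%), where 1 was called lower (2.62%). Without replicate 1 of the mutant 7 were called higher and 0 lower in Sp1_deltaDBD, and without replicate 2 4 and 1. Their summed level was 16.2 to 17.1 FPKM in WT, 29.8 to 60.1 in Sp1_deltaDBD and 32.1 to 32.8 in Sp3KO. In the 6 ESC samples the same sum was 38.4 to 45.8 FPKM, so it does not count endothelial cells. The part of the mix of cells, and of the time in culture, in the differences of Dppa5a, Pou5f1, Sox2, Utf1 and Prdm14 was not tested.

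The summed level of the network was 1970 to 2588 FPKM in the 6 ESC samples, and lists of other cells summed to less. Germ cell genes summed to 95.5 to 160 FPKM and trophectoderm genes to 39.8 to 93.1. Neuroectoderm genes summed to 55.3 to 74.7 FPKM and primitive endoderm genes to 43.6 to 66.2. Such sums depend on the level of each gene and do not count cells. Of 14 feeder fibroblast genes 10 were in the table, and their summed level was 9.26 to 10.9 FPKM in WT ESC, 24.1 to 29.7 in Sp1_deltaDBD and 9.81 to 19.9 in Sp3KO. None of the 10 was called in ESC of either mutant (6.06% and 11.3% of all genes), with 2 in each at an unadjusted p under 0.05 by limma. Of 12 genes of the LIF and Stat3 pathway, 1 was called lower in Sp1_deltaDBD ESC, and 1 higher and 1 lower in Sp3KO, beside the same shares of all genes. Junb, an immediate early gene that LIF induces, was at a mean of 24.8 FPKM in Sp3KO ESC against 6.69 in WT (log2 difference 1.99, SE 0.39, adjusted p = 0.0029). This difference is from the fit without GC adjustment.

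Over the 15 group means the 9 genes other than Tbx3 followed each other closely. Pearson's r of log2(FPKM + 0.1) was 0.835 to 0.992 among their pairs and 0.0640 to 0.419 between Tbx3 and the others. These are descriptions over groups that share 1 ES line within each genotype, and the ESC groups set most of the range. The genes outside the network most like the mean of the 10 were Fgf4 (r = 0.994), L1td1 (0.993), Zyg11a (0.992), Gli1 (0.992), Gm11627 (0.992) and Slc7a7 (0.988). Single genes had partners as close, such as Nanog and Elf3 (0.996), Esrrb and Dnmt3l (0.995), Utf1 and Ooep (0.995) and Tbx3 and Tead4 (0.976), and Pou5f1 was nearest to Nanog (0.990).

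Replicates were closest where the genes were abundant. The median SD between the 2 samples of a group, on the log2 scale, was 0.098 in ESC, 0.586 in Flk1+ cells, 0.472 in HE1, 0.595 in HE2 and 0.675 in progenitors. Sox2 lies inside the same-strand transcript Sox2ot, which is in the table, so reads of the 2 genes may be shared, and Pou5f1 and Tbx3 have overlapping genes on the other strand.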

How the data were processed

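Total RNA of 30 samples (5 populations, 3 genotypes, 2 replicates each) had been sequenced after removal of ribosomal RNA. The deposited values are FPKM, which the authors made by trimming the reads, aligning them to mm10 with HISAT2 2.1.0 and estimating gene levels with StringTie 1.3.3. Genes that no sample held above 1 FPKM were dropped, and the samples were then quantile normalised, which removes differences in total RNA. Counts and depth were not analysed here.

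Genes above 1 FPKM in at least 1 sample (14525 of 14685) were fitted on log2(FPKM + 0.1) with limma 3.58.1 in R 4.3.3, as 15 group means with an intensity trend. All 35 contrasts were two-sided, with Benjamini-Hochberg adjustment over all genes within each contrast and a threshold of 0.05. A log2 difference on this scale understates the change of genes with low values. The study used a fold change above 2 with no test, which was counted beside the limma calls. The genes and gene lists were chosen with earlier results of these data known. Of each other list, the text names the largest called rises and falls with a mean above 3 FPKM, except that 1 of them is not reported here. Promoters are from RefSeq (GRCm38.p6), 7 of 10 matched. Other pseudocounts, filters, a replicate block, GC content and length adjustment, fits of single populations and left-out samples were tried.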

Additional observations from a re-analysis of the deposited data

Results flagged for a closer look

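In the fit to all samples, the change between ESC and Flk1+ cells in the difference of Prdm14 between Sp1_deltaDBD and WT passed a test of that change itself. Prdm14 was at 8.18 and 9.95 FPKM in Sp1_deltaDBD ESC against 7.17 and 8.34 in WT ESC, and at 0.607 and 0.390 in Sp1_deltaDBD Flk1+ cells against 1.73 and 2.64 in WT. The interaction was -2.15 on the log2 scale (SE 0.49, limma adjusted p = 0.0310). Without WT Flk1+ replicate 2 it was -1.86. The call was lost there, without Sp1_deltaDBD Flk1+ replicate 2, and without each WT or Sp1_deltaDBD ESC sample in turn.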

How the results depend on the processing

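Across 9 other settings and 30 left-out samples 0 of the calls changed direction. Differences that were not called could change direction. The median log2 difference of the 10 genes from WT in Sp1_deltaDBD Flk1+ cells was -0.45 without replicate 1 of the mutant. Without replicate 2 it was 0.21. Of 60 calls at the steps of differentiation, 53 were kept throughout, and of 16 calls between genotypes or stages, 1 was (Dppa5a, Sp3KO against Sp1_deltaDBD, Flk1+ cells). Calls of the 10 genes over the 5 populations numbered 2 for Sp1_deltaDBD against WT, and 1 among genes with a mean above 3 FPKM, where Prdm14 was not tested, and 0 with each population fitted alone. For Sp3KO against WT 6 calls became 10 with a pseudocount of 1 and 2 with each population alone. For Sp3KO against Sp1_deltaDBD 7 became 4 without the intensity trend, 3 with GC content and length adjustment and 2 with each population alone. The 1 call of the interaction with stage in Sp1_deltaDBD was Prdm14, which the minimum mean of 3 FPKM left out, so that 0 calls stood there. In Sp3KO 0 became 8 with a pseudocount of 1 (Pou5f1 and Dppa5a in Flk1+ cells among them) and 1 with a random effect of genotype and replicate number. The fold change rule gave 1 and 3 calls, and 7 and 12 with no minimum mean FPKM. The shares of all genes called under these other settings or with samples left out are not given here. These counts therefore do not compare the 10 genes with all genes.

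Leaving out 1 sample gave 1 to 3 calls for Sp1_deltaDBD against WT, 3 to 10 for Sp3KO against WT, 3 to 8 for Sp3KO against Sp1_deltaDBD, 9 to 9 falls from ESC to Flk1+ cells in each genotype, 8 to 10, 8 to 14 and 10 to 13 calls at the later steps in WT, Sp1_deltaDBD and Sp3KO, and 0 to 2 for the interaction in either mutant. The count for Sp3KO against WT was 3 without WT replicate 2 or Sp3KO replicate 1 of the Flk1+ samples and 10 without either Sp1_deltaDBD HE2 replicate.

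The labels do not say that a replicate number marks a shared culture or day. With the number as a replicate block the counts were 2, 8 and 8 for the comparisons of genotypes, and Pou5f1 lost its fall from ESC to Flk1+ cells in Sp3KO (-2.14, limma adjusted p = 0.0600), while Tbx3 was called higher in Sp3KO ESC than in WT (adjusted p = 0.0495). With the block and GC content and length adjustment together, Sp3KO against Sp1_deltaDBD had 3 calls. Deviations of same-numbered samples correlated at 0.255 to 0.481 between WT and Sp1_deltaDBD, 0.00318 to 0.194 between WT and Sp3KO and -0.0834 to 0.182 between the mutants. Among HE1, HE2 and progenitors of 1 genotype they correlated at 0.382 to 0.458 in WT, 0.451 to 0.649 in Sp1_deltaDBD and 0.0264 to 0.161 in Sp3KO. Fitted alone, Flk1+ samples lost the calls of Prdm14 (adjusted p = 0.0534 in Sp1_deltaDBD and 0.0682 in Sp3KO), Sox2 (0.135) and Utf1 (0.0919) against WT, and HE2 samples that of Dppa5a (0.130). Fitted on ESC and Flk1+ samples alone, a choice made after seeing the data, Pou5f1 was called higher in Sp3KO Flk1+ cells than in WT (adjusted p = 0.0165), as with a pseudocount of 1 (0.000636). The causes were not tested. Depth is unknown, so values under 1 FPKM carry an error that the 2 samples alone show.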

Other observations

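Lists of other cell types were read in the same fit. Of 11 germ cell genes measured, 2 were called higher and 2 lower in Sp1_deltaDBD Flk1+ cells (2.92% and 2.62% of all genes) and 2 higher in Sp3KO (6.69%). Without replicate 1 of the Sp1_deltaDBD pair the counts there were 1 and 1, and without replicate 2 they were 3 and 0. Sycp3, a protein of the meiotic chromosome axis, was at 2.0 and 1.17 FPKM in Sp1_deltaDBD Flk1+ cells against 14.0 and 19.5 in WT (log2 difference -3.34, SE 0.78, limma adjusted p = 0.0147). The call was kept without replicate 1 of the mutant (0.0484) and lost without replicate 2 (0.117). Of 9 trophectoderm genes measured 2 were called higher in Sp3KO Flk1+ cells (6.69% of all genes), Eomes and Tfap2c, which mesoderm and germ cells also express. Eomes was at a mean of 160 FPKM against 44.3 in WT (log2 difference 1.86, SE 0.45, adjusted p = 0.0115). Of 10 primitive endoderm genes measured 0 were called in Flk1+ cells of either mutant (5.54% of all genes in Sp1_deltaDBD and 12.6% in Sp3KO). At an unadjusted p under 0.05 by limma there were 0 in Sp1_deltaDBD and 1 in Sp3KO. Of 6 neuroectoderm genes 1 was called higher and 1 lower in Sp3KO Flk1+ cells (6.69% and 5.94% of all genes). Nes, an intermediate filament of neural precursors, was at a mean of 13.2 FPKM against 6.48 in WT (log2 difference 1.01, SE 0.28, limma adjusted p = 0.0237).

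Some pluripotency genes outside the network were higher in later populations of the mutants. Dppa2 was at a mean of 6.57 FPKM in Sp1_deltaDBD HE1 against 0.399 in WT (log2 difference 3.78, SE 0.77, limma adjusted p = 0.00401), and Tex19.1 at 3.72 FPKM in Sp1_deltaDBD progenitors against 0.253 (3.39, SE 0.49, adjusted p = 0.000233). Klf4, which blood and vessel cells also express, was lower in Sp1_deltaDBD HE1 (4.65 against 12.6 FPKM, -1.43, adjusted p = 0.00732) and in Sp3KO HE2 (2.62 against 6.29 FPKM, -1.18, adjusted p = 0.0193).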
